A study of Homo sapiens with 4 samples.

Results

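Fatty acid elongases and desaturases are membrane enzymes of the endoplasmic reticulum that set the length and the number of double bonds of acyl chains. The elongases (ELOVL) perform the condensation step that adds carbons to an acyl-CoA, and each prefers certain chain lengths and degrees of saturation. Stearoyl-CoA desaturases (SCD, SCD5) place a double bond in saturated chains to make oleate and palmitoleate, and FADS2 and FADS1 act in turn on the essential fatty acids to make polyunsaturated fatty acids such as arachidonate. In ovarian cancer, SCD and lipid desaturation have been studied in relation to stem-like cells and drug response.

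The transcripts of 10 such genes were read in RNA-seq counts of the human ovarian carcinoma cell line IGROV1, in 2 groups of 2 replicate libraries. The cisplatin-resistant (CR) line was selected from wild-type IGROV1 by 6 cycles over 5 months, each with 4 hours of cisplatin at a rising concentration and then 3 weeks without the drug. The wild-type (WT) line is its parent, and both were collected untreated in log growth. There was 1 resistant line and 1 parent line. The sample titles number the replicates without saying whether they were separate cultures. P-values therefore measure the spread between these libraries, whatever its source, and do not cover independent selections.

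The 10 members (ELOVL1, ELOVL2, ELOVL4, ELOVL5, ELOVL6, ELOVL7, SCD, SCD5, FADS1 and FADS2) were selected by gene symbol, with the CR and WT counts of these same libraries already known. Their CR and WT levels are therefore given as a description, and no p-value is given for any of them. All 10 were found among the 58051 rows of the count table. Of these members 9 passed the filter on low counts that left 17304 genes for testing, and ELOVL2 did not. ELOVL3, an elongase of saturated and monounsaturated chains, and FADS3, a FADS relative, are in the table but outside the members.

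Library totals ranged from 24008899 to 24727362 counts in CR and from 23886257 to 24264458 in WT. Levels are given as CPM, counts scaled by the TMM-adjusted library size. Over all tested genes the median ratio of the higher to the lower replicate in CPM was 1.12 in CR and 1.36 in WT, so the WT pair was the more variable. Epithelial and ovarian markers were present, with 9 of 10 at 1 CPM or more in every library and a summed level of 2808 to 2941 CPM in CR and 3793 to 5457 CPM in WT. Single markers went both ways. EPCAM had 209 CPM in CR and 116 CPM in WT, and CDH1 had 244 CPM in CR and 79.7 CPM in WT. Lower in CR were KRT7 (5.02 CPM in CR, 395 CPM in WT), KRT8 (628 CPM in CR, 1622 CPM in WT) and KRT18 (683 CPM in CR, 1193 CPM in WT). So were MSLN (45.9 CPM in CR, 191 CPM in WT) and MUC16 (5.70 CPM in CR, 36.0 CPM in WT). The gene WT1 was also lower, under 1 CPM in every library. KRT19 and PAX8 overlapped between the groups. Of 6 fibroblast markers 3 had 0 counts in every library, and the sum of all 6 was 2.71 to 2.82 CPM in CR and 34.5 to 59.5 CPM in WT. In WT this was mostly COL1A1, while in CR the means of COL1A1 and PDGFRB were similar (1.38 and 1.37 CPM). Of 4 endothelial markers KDR had 0 counts, and the sum was 29.8 to 33.4 CPM in CR and 67.0 to 85.3 CPM in WT. Within it CDH5 had 0.989 CPM in CR and 44.0 CPM in WT, while PECAM1 had 3.53 CPM in CR and 0.232 CPM in WT. Immune markers summed to at most 2.62 CPM in any library, adipocyte markers to at most 0.736 CPM (ADIPOQ and FABP4 at 0), and hepatocyte markers to 1.02 to 1.07 CPM in CR and 8.05 to 8.50 CPM in WT (APOB at 0). The part of these markers in the members' values was not tested.

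The members whose levels differed furthest were ELOVL4 and SCD, higher in CR, and ELOVL6, lower in CR. Their RefSeq promoters (GRCh38.p14, the 250 bases before the annotated start) are shown because these genes went in opposite directions. Capitals mark matches on either strand to the CCAAT box (letters CCAAT), bound by NF-Y, the E-box (letters CACGTG), bound by bHLH factors, the GC box (letters GGGCGG), bound by Sp1-type factors, and the core of a sterol response element (letters TCACNCCAC), bound by SREBP. ELOVL4 lies at chr6:79947554-79947803 (minus strand), ELOVL6 at chr4:110198616-110198865 (minus strand) and SCD at chr10:100346983-100347232 (plus strand).
ELOVL4: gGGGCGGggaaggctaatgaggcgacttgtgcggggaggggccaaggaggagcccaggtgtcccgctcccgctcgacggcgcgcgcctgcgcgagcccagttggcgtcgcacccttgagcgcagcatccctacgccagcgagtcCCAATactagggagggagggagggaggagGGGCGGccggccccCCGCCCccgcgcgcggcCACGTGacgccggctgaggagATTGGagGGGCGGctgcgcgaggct
ELOVL6: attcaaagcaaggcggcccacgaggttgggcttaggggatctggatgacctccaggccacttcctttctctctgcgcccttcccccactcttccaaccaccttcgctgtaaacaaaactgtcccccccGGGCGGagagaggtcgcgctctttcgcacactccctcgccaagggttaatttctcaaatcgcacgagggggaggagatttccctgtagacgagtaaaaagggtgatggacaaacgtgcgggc
SCD: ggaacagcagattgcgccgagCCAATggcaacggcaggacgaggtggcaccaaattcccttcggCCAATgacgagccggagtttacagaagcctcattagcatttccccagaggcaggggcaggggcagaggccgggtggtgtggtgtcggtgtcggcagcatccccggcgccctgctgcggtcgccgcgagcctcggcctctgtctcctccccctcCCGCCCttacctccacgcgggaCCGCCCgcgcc

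The ELOVL4 window held 2 CCAAT boxes, 1 E-box and 4 GC boxes, and its GC content was 74.4%. The SCD window held 2 CCAAT boxes and 2 GC boxes at 68.0% GC. The ELOVL6 window held 1 GC box alone at 57.2% GC, against a median of 58.0% over all 35116 RefSeq promoter windows. Over all the members, which had 11 windows, 5 of 10 genes held a CCAAT box (32.0% of all windows), 2 held an E-box (ELOVL4 and ELOVL5; 6.34% of all windows), and 9 held a GC box (42.6%). Members are counted by gene and the shares by window, and FADS2 had 2 windows. The GC content of member windows ranged from 56.0% (ELOVL5) to 84.8% (ELOVL2), and the shares were not matched for it. The sterol response core was found in 0 member windows and in 0.883% of all windows, so its absence from 11 windows says little. These matches are letters in a window and were not measured as binding sites. A CCAAT box overlaps a GC box in the ELOVL1 window. In GENCODE 29 the body of ELOVL6 extends to 110199199, that of ELOVL4 extends to 79947580 and that of SCD begins at 100347124. The start of each thus differs between the annotations, and not by the same amount. The whole ELOVL6 window lies inside its GENCODE body, while the ELOVL4 and SCD windows lie mostly before theirs. The ELOVL6 window may therefore not be the same kind of sequence as the other windows shown. Which start these cells use was not tested.

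**Figure D1:**
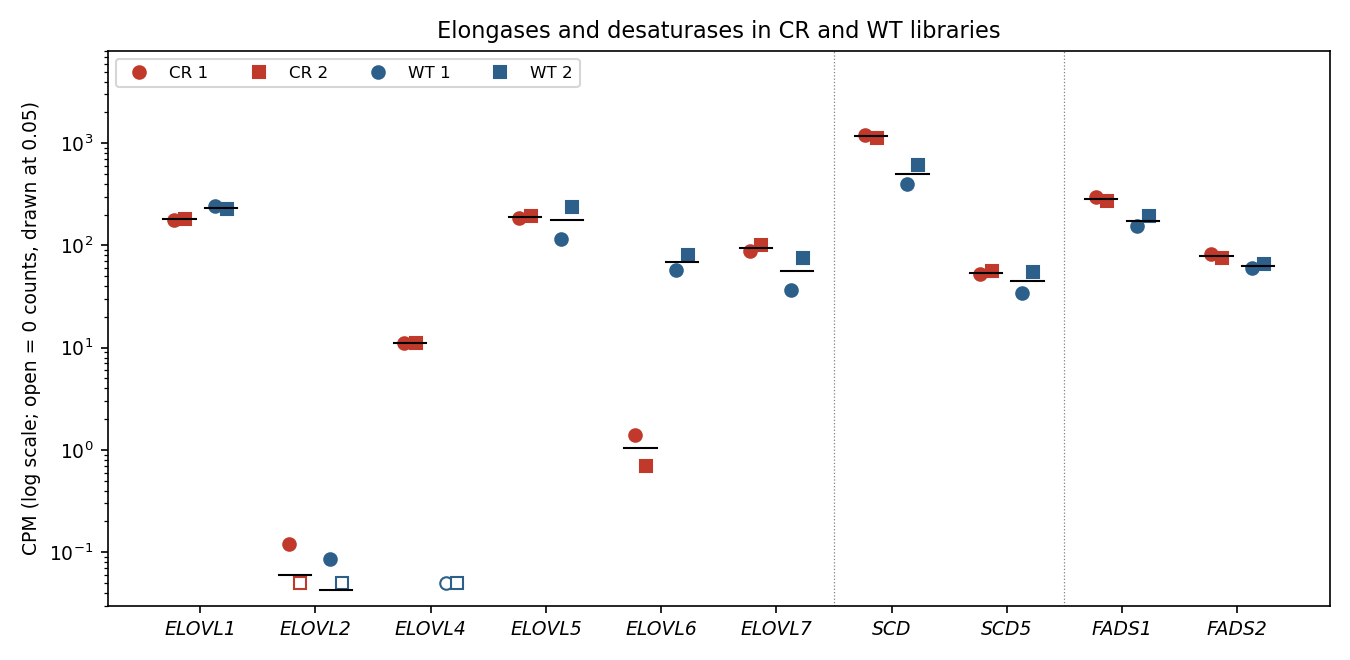
Level of each member in each library, as CPM on a log axis, with CR libraries in red left of WT libraries in blue and black bars for group means (n = 2 each). ELOVL4 was present in CR alone (11.1 CPM in both CR libraries, 0 counts in both WT libraries), ELOVL6 was near 1 CPM in CR against 57.3 and 79.9 CPM in WT, and SCD was at 1199 and 1127 CPM in CR against 394 and 613 CPM in WT.

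ELOVL6 (ENSG00000170522; chromosome 4, 110045846 to 110199199, minus strand), which extends palmitoyl-CoA to stearoyl-CoA, had 35 and 17 counts in CR, against 1338 and 1907 counts in WT. These correspond to 1.39 and 0.695 CPM in CR and 57.3 and 79.9 CPM in WT. The groups were far apart, and the mean of 1.04 ± 0.494 CPM in CR was 65.5-fold lower than the 68.6 ± 15.9 CPM in WT (SD, n = 2 each; log2 fold change -6.03, SE 0.41). In bulk RNA, fewer cells with the transcript and less transcript per cell cannot be told apart.

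ELOVL4 (ENSG00000118402; chromosome 6, 79914812 to 79947580, minus strand) makes ultra-long-chain fatty acids of retina, skin and brain and is mutated in an inherited macular dystrophy. It had 278 and 272 counts in CR (11.1 CPM in each library) and 0 counts in both WT libraries. With a floor of 3 counts over both WT libraries, it was at least 175-fold higher in CR. Its level in CR was 3.64 ± 0.0133 CPM per kb of exon (SD, n = 2), or 2.25% and 2.19% of the length-scaled elongase total, below ELOVL1, ELOVL3, ELOVL5 and ELOVL7 and above ELOVL2 and ELOVL6. No exon of ELOVL4 overlaps an exon of another annotated gene, and 0 of the 2993 words of 50 bases in its transcript occur in transcripts of other genes.

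ELOVL1, ELOVL3 and ELOVL7 act mainly on saturated and monounsaturated chains, and ELOVL1 provides the very-long chains of sphingolipids. ELOVL1 (ENSG00000066322; chromosome 1, 43363397 to 43368074) had 176 and 182 CPM in CR, against 242 and 225 CPM in WT. Both CR libraries lay below both WT libraries, by a modest 1.30-fold on summed counts (log2 fold change -0.38, SE 0.17). ELOVL7 (ENSG00000164181; chromosome 5, 60751791 to 60844389) had 88.7 and 99.8 CPM in CR and 36.6 and 75.2 CPM in WT. The CR libraries were above both WT libraries, but the WT libraries differed from each other by 2.05-fold, more than the 1.68-fold difference between groups (log2 fold change 0.75, SE 0.34). ELOVL3, outside the members, had 26.8 and 24.4 CPM in CR and 16.6 and 17.0 CPM in WT (log2 fold change 0.61, SE 0.22), so the CR libraries lay above both WT libraries.

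ELOVL5 and ELOVL2 elongate polyunsaturated chains. ELOVL5 (ENSG00000012660; chromosome 6, 53267398 to 53349179) had 186 and 193 CPM in CR and 115 and 236 CPM in WT. The CR values lay between the WT values, so the groups overlapped, and the log2 fold change of 0.11 (SE 0.32) turned to -0.32 without WT replicate 1 and was 0.72 without WT replicate 2. ELOVL2 (ENSG00000197977; chromosome 6, 10980759 to 11044314), which carries docosahexaenoate synthesis past the range of ELOVL5, had 3 and 0 counts in CR and 2 and 0 counts in WT. Both sums were at or under the floor of 3 counts, so no fold is given, and a difference was not detectable at this depth. Its antisense neighbour ELOVL2-AS1 had 0 counts in every library.

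**Figure D2:**
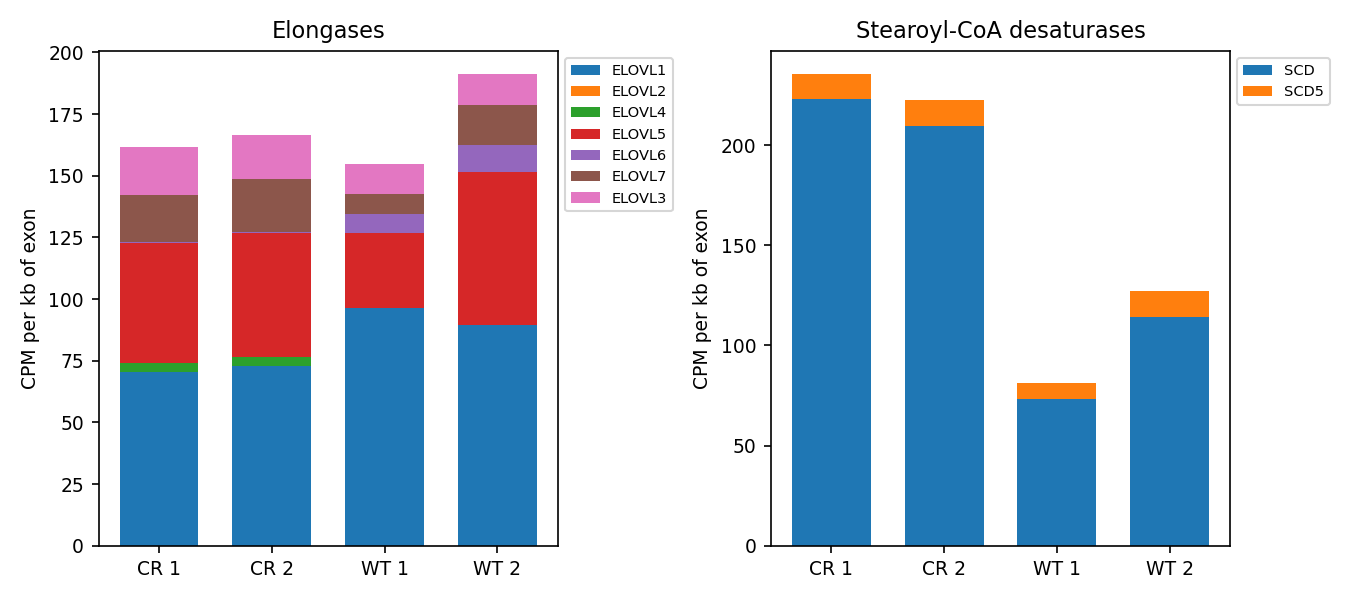
Stacked levels of the elongases (left) and of SCD and SCD5 (right) in each library, as CPM per kb of exon on linear axes, with CR libraries left of WT libraries. ELOVL1 and ELOVL5 made up most of the elongase bar in each library, the ELOVL6 segment was 0.118% and 0.0571% of it in CR against 5.07% and 5.72% in WT, and the SCD bar was taller in both CR libraries.

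Scaled to exon length, the summed elongases were 162 and 167 CPM per kb in CR and 155 and 191 CPM per kb in WT, so the totals overlapped while the make-up differed. ELOVL6 held 0.118% and 0.0571% of this total in CR, against 5.07% and 5.72% in WT. With coding length in place of exon length its shares were 0.317% and 0.152% in CR and 13.3% and 13.9% in WT, since its long untranslated exons lower its level per kb of exon. ELOVL1 held 43.4% and 43.6% in CR and 62.4% and 46.9% in WT, and ELOVL7 12.0% and 13.1% in CR and 5.16% and 8.59% in WT. These shares sum over ELOVL3 as well. They are shares of length-scaled levels and not of counts.

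SCD (ENSG00000099194; chromosome 10, 100347124 to 100364834), the main enzyme of oleate synthesis, had 1199 and 1127 CPM in CR, against 394 and 613 CPM in WT. Both CR libraries were well above both WT libraries, and the mean of 1163 ± 50.7 CPM in CR was 2.30-fold the 504 ± 155 CPM in WT (SD, n = 2 each; log2 fold change 1.21, SE 0.23). Leaving out 1 library at a time gave log2 fold changes of 0.92 to 1.56. SCD5 (ENSG00000145284; chromosome 4, 82629539 to 82798857), another human stearoyl-CoA desaturase, abundant in brain, had 52.6 and 55.9 CPM in CR and 34.5 and 55.3 CPM in WT. WT replicate 2 lay within the CR range, and the log2 fold change of 0.27 (SE 0.27) was -0.0318 without WT replicate 1.

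The ratio of SCD to SCD5, per kb of exon, was 18.3 and 16.1 in CR and 9.13 and 8.88 in WT. The WT libraries thus differed by 1.56-fold in SCD and by 1.60-fold in SCD5 but had closely similar ratios, and both CR ratios lay above both WT ratios. SCD held 94.8% and 94.2% of the length-scaled sum of the pair in CR and 90.1% and 89.9% in WT. SCD uses stearoyl-CoA, the product of ELOVL6. The ratio of SCD to ELOVL6 per kb of exon was 1171 and 2205 in CR, on 35 and 17 ELOVL6 counts, against 9.35 and 10.5 in WT. Of the 5313 words of 50 bases in the SCD transcript, 4.42% occur in transcripts of other genes, and its processed pseudogene SCDP1 had 0 and 2 counts in CR and 0 and 0 counts in WT.

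FADS2 catalyses the desaturation usually taken as rate-limiting in polyunsaturated fatty acid synthesis, and FADS1 the later one that yields arachidonate. FADS1 (ENSG00000149485; chromosome 11, 61799625 to 61829318, minus strand) had 297 and 270.1 CPM in CR, against 155 and 193 CPM in WT. The CR libraries lay above both WT libraries, at 1.63-fold on summed counts (log2 fold change 0.70, SE 0.19). FADS2 (ENSG00000134824; chromosome 11, 61792980 to 61867354, plus strand) had 82.3 and 75.1 CPM in CR and 60.1 and 65.8 CPM in WT. These groups too did not overlap, with a smaller difference of 1.25-fold (log2 fold change 0.32, SE 0.20).

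FADS1 and FADS2 lie in opposite orientation and overlap, with 490 exon bases in common (4.79% of the FADS1 exons and 4.44% of those of FADS2). The library kit keeps strand, but how the counting used it is not stated in those sources, and reads from the shared bases may have gone to either gene. The ratio of FADS1 to FADS2 per kb of exon was 3.89 and 3.88 in CR and 2.77 and 3.16 in WT. The third gene of this cluster, FADS3, had 63.6 and 69.0 CPM in CR and 133 and 91.2 CPM in WT. Both of its CR libraries lay below both WT libraries, in the opposite direction to FADS1 and FADS2, and it did not pass the test (log2 fold change -0.76, SE 0.24; edgeR adjusted p = 0.0939).

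At an adjusted p of at most 0.05 in the fit over all genes, 13.5% of the 17304 genes were called, 5.44% higher and 8.10% lower in CR. Among the 9 tested members, 2 were called higher (ELOVL4 and SCD), 1 lower (ELOVL6) and 6 were not called. Because the members were chosen with this contrast in view, nothing is read from these counts. With WT replicate 2 left out, 7 were called higher and 2 lower, and calls over all genes were 3864 higher and 4015 lower; that fit takes its spread from the CR libraries alone. In CPM, 5 of the 9 had both CR libraries above both WT libraries (27.0% of all tested genes), 2 had both below (28.2%) and 2 overlapped, where 55.3% of all tested genes did not overlap. The median log2 fold change of the 9 was 0.32, and that of all tested genes was -0.01, with quartiles of -0.36 and 0.39.

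**Figure D3:**
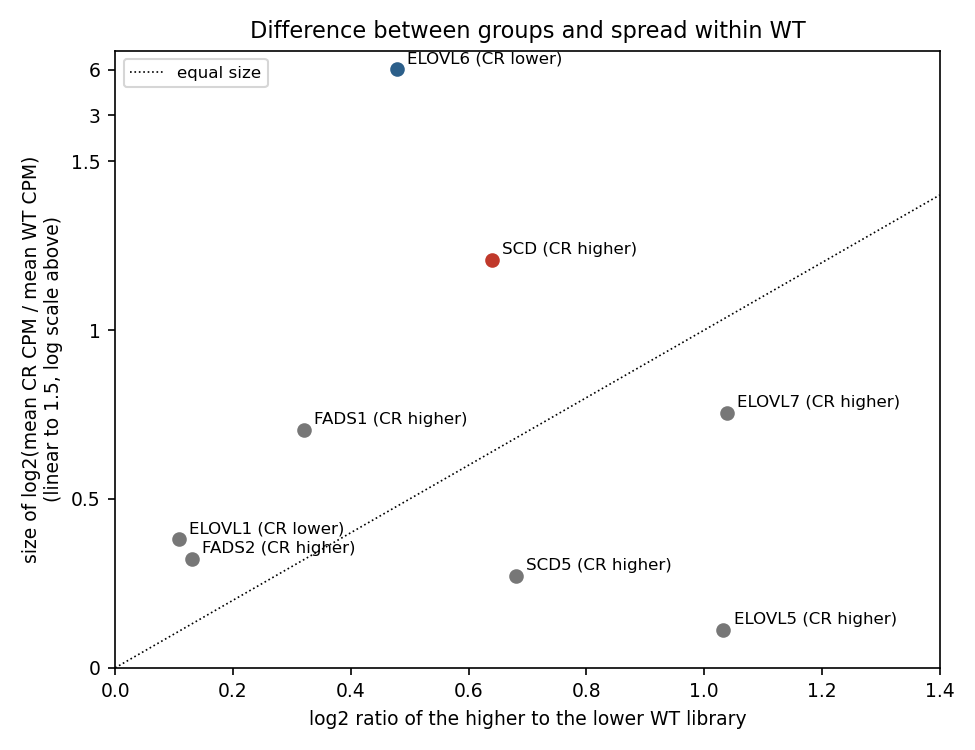
Size of the difference between groups (y, log2 of mean CR over mean WT CPM, linear to 1.5 and log above) against the ratio of the higher to the lower WT library (x, log2), for the 8 tested members with counts in both WT libraries. Of these, 5 lie above the dotted line of equal size, and ELOVL5, ELOVL7 and SCD5 lie below it.

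Among the 8 tested members with counts in both WT libraries, the difference between group means was set beside the ratio of the WT libraries. The difference was larger than this ratio for ELOVL1, ELOVL6, SCD, FADS1 and FADS2, and smaller for ELOVL5, ELOVL7 and SCD5. A difference larger than the WT ratio was not always called, since ELOVL1, FADS1 and FADS2 were not. In 7 of these 8, WT replicate 2 was above WT replicate 1, ELOVL1 being the exception, while 47.4% of all tested genes with counts in both were higher in WT replicate 2. The median ratio of the higher to the lower library over the tested members was 1.06 in CR and 1.48 in WT. Library WT replicate 2 also differed in its share of transcripts of the mitochondrial genome, which was 8.81% and 10.1% in CR and 10.3% and 6.68% in WT (WT replicates 1 and 2). The part of this in the members' values was not tested.

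Ordered per kb of exon, SCD led in CR at 217 ± 9.45 CPM per kb, followed by ELOVL1 at 71.5 ± 1.71, ELOVL5 at 49.7 ± 1.28, FADS1 at 27.7 ± 1.85 and ELOVL7 at 20.6 ± 1.71 (SD, n = 2). Below these came SCD5 at 12.6 ± 0.553, FADS2 at 7.13 ± 0.461, ELOVL4 at 3.64 ± 0.0133 and ELOVL6 at 0.143 ± 0.0676 CPM per kb. In WT, SCD at 93.8 ± 28.9 and ELOVL1 at 93.0 ± 4.92 CPM per kb did not differ beyond their spread. ELOVL5 followed at 46.0 ± 22.4 and FADS1 at 17.0 ± 2.66 CPM per kb, and ELOVL7 (12.2 ± 5.96), SCD5 (10.5 ± 3.42) and ELOVL6 (9.39 ± 2.18) overlapped. FADS2 was at 5.71 ± 0.365 CPM per kb in WT. The annotated exon union of FADS1 and FADS2 is long for their coding length (10230 and 11026 bases against 1503 and 1332), so their place in this order is uncertain. Per kb of coding sequence FADS2 (59.0 ± 3.81 in CR, 47.2 ± 3.02 in WT) and SCD5 (54.7 ± 2.40 in CR, 45.3 ± 14.8 in WT) did not differ beyond their spread.

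The differences of the members were set beside their nearest protein-coding neighbours, 3 tested genes on each side, to see whether whole stretches of chromosome moved; this comparison was added after the members' values were seen. Over all tested genes 13.5% were called in edgeR. Of 6 neighbours of ELOVL4, 1 was called in edgeR (DESeq2 1, limma-voom 1, and 1 with an unadjusted p under 0.05). It was LCA5, a ciliary protein gene 377.4 kb away, at 4.21 CPM in CR and 0.0838 CPM in WT (edgeR adjusted p = 0.00481). The WT mean of LCA5 was under the 0.129 and 0.126 CPM that 3 counts make in the WT libraries, so the size of its difference is uncertain. The genes on either side of ELOVL4 did not pass, SH3BGRL2 with 8.01 CPM in CR and 8.56 CPM in WT, and the mitotic kinase gene TTK with 27.8 CPM in CR and 33.8 CPM in WT. Of 6 neighbours of ELOVL6, 1 was called in edgeR (DESeq2 1, limma-voom 1, and 2 with an unadjusted p under 0.05). CFI, complement factor I, fell to 1.96 CPM in CR against 6.18 CPM in WT (log2 fold change -1.65, SE 0.36; edgeR adjusted p = 0.0262), at 243.7 kb. EGF, 33.6 kb from ELOVL6, had 2.54 CPM in CR and 2.30 CPM in WT and did not pass. Of 6 neighbours of ELOVL7, 1 was called in edgeR (DESeq2 2, limma-voom 1; 3 had an unadjusted p under 0.05). DEPDC1B rose to 133 CPM in CR against 59.5 CPM in WT (log2 fold change 1.16, SE 0.24; edgeR adjusted p = 0.0220). PDE4D, a phosphodiesterase gene, had 45.7 CPM in CR and 23.2 CPM in WT and passed in DESeq2 (adjusted p = 0.0411) but not in edgeR (adjusted p = 0.120). Around SCD 0 of 6 were called in edgeR (DESeq2 0, limma-voom 0; 0 had an unadjusted p under 0.05), and around the FADS pair 0 of 7 in edgeR (DESeq2 0, limma-voom 0; 2 had an unadjusted p under 0.05). The neighbours were not refitted without single libraries.

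Other genes of fatty acid metabolism were read from 10 lists with 110 genes, of which 94 were tested. The lists were chosen with earlier results of these data known, so their calls and adjusted p-values are a description and not independent support. Of the 94 tested genes, 5 rose and 9 fell (5.32% and 9.57%, against 5.44% and 8.10% of all tested genes), and their median log2 fold change was -0.02. These counts rest on few libraries. They were smaller without either CR replicate and larger without either WT replicate, in fits that take their spread from the other group alone.

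**Figure D4:**
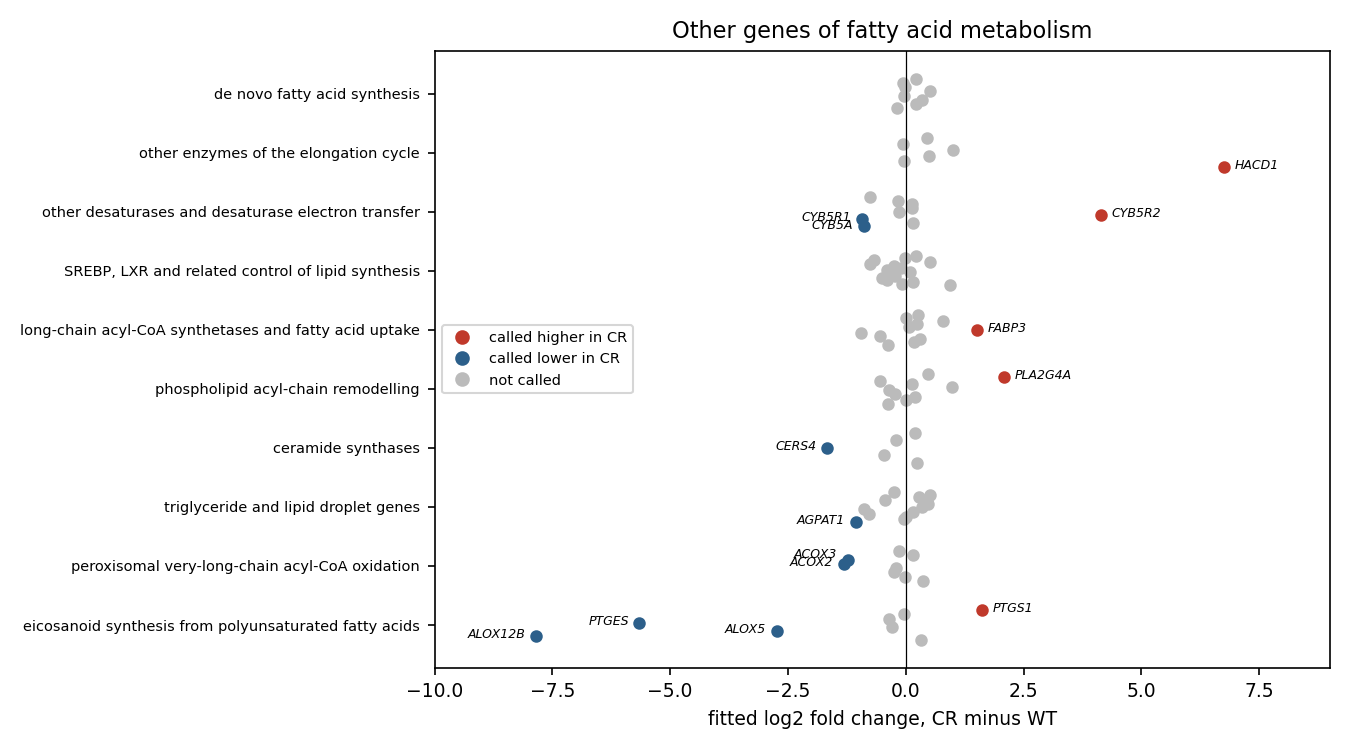
Fitted log2 fold change, CR minus WT, of the tested genes of 10 lists of fatty acid metabolism, 1 point per gene, with genes called higher in CR in red, called lower in blue and not called in grey. Most points lie near 0, and the called genes are named; the values drawn for HACD1 (2 counts in WT) and ALOX12B (0 counts in CR) depend on the prior count of the fit.

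Partners of the elongases and desaturases differed at single isoforms. Of 6 tested genes of the remaining elongation steps 1 rose and 0 fell: HACD1, a dehydratase of the cycle best known from muscle, had 120 and 136 counts in CR and 2 and 0 counts in WT (ratio 122, 95% interval 33.4 to 1012 for counting error only; edgeR adjusted p = 0.00155). The reductases shared by all elongases did not pass: HSD17B12 had 44.0 ± 1.56 CPM in CR and 45.8 ± 19.3 CPM in WT, and TECR had 124 ± 5.25 CPM in CR and 91.0 ± 32.3 CPM in WT. Without WT replicate 1 the log2 fold change was -0.44 for HSD17B12 and 0.86 for TECR. Without WT replicate 2 that of HSD17B12 was 0.45, so its direction rested on which WT library was kept.

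Desaturases take electrons from cytochrome b5 and its reductases. Of 9 tested genes of this list, which also holds other desaturases, 1 rose and 2 fell. CYB5R2, a reductase, rose to 35.1 ± 3.18 CPM in CR against 2.00 ± 0.691 CPM in WT (log2 fold change 4.14, SE 0.33; edgeR adjusted p = 0.000488). CYB5A, the microsomal cytochrome b5, fell to 45.8 ± 5.27 CPM in CR against 85.2 ± 4.95 CPM in WT (log2 fold change -0.90, SE 0.21; edgeR adjusted p = 0.0319), and CYB5R1 fell to 33.7 ± 3.01 CPM in CR against 64.5 ± 3.10 CPM in WT. Both of these last calls ended when either CR replicate was left out, in fits that take their spread from the WT pair alone. A filter of 1 CPM in all libraries also ended them (edgeR adjusted p = 0.0552 for CYB5A and 0.0507 for CYB5R1). CYB5R3, another reductase, had 156 ± 12.6 CPM in CR and 173 ± 26.6 CPM in WT and did not pass.

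The enzymes that supply the members and the factors known to control them showed no call in edgeR. Of 8 tested genes of de novo fatty acid synthesis 0 passed in edgeR (DESeq2 0, limma-voom 0; 0 had an unadjusted p under 0.05). FASN, fatty acid synthase, had 297 ± 65.9 CPM in CR and 208 ± 44.9 CPM in WT, ACLY had 459 ± 48.4 CPM in CR and 363 ± 23.5 CPM in WT, and ACACA had 183 ± 35.4 CPM in CR and 208 ± 34.4 CPM in WT. With a single WT library kept, the log2 fold change of FASN was 0.74 without WT replicate 1, and that of ACLY was 0.40 without WT replicate 2. Of 16 tested genes of SREBP, LXR and related control 0 passed in edgeR (DESeq2 1, limma-voom 0), and 4 had an unadjusted edgeR p under 0.05. Of these 4, INSIG1 (72.7 CPM in CR, 37.8 CPM in WT) and RXRA (92.8 CPM in CR, 64.7 CPM in WT) were higher in CR. SCAP (79.0 CPM in CR, 125 CPM in WT) and PPARG (7.67 CPM in CR, 12.9 CPM in WT) were lower. None of the 4 overlapped between the groups. SREBF1, whose product activates SCD and ELOVL6 transcription, had 121 ± 6.51 CPM in CR and 122 ± 38.1 CPM in WT, and SREBF2 had 287 ± 38.4 CPM in CR and 246 ± 18.2 CPM in WT. MBTPS1, a protease that cleaves SREBP precursors, had 256 ± 13.5 CPM in CR and 229 ± 28.7 CPM in WT. These are transcript levels, and the processed, active SREBP proteins were not measured.

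Among genes that take up or use the products, single members of most lists passed. Of 11 genes of acyl-CoA synthesis and uptake 1 rose and 0 fell: FABP3, a fatty acid-binding protein, reached 274 ± 24.9 CPM in CR against 95.4 ± 20.4 CPM in WT (log2 fold change 1.52, SE 0.22; edgeR adjusted p = 0.00515). Of 10 genes of phospholipid remodelling 1 rose and 0 fell, PLA2G4A, a phospholipase that releases arachidonate, with 2.91 ± 0.398 CPM in CR and 0.680 ± 0.250 CPM in WT. Of 5 ceramide synthases, which join acyl chains to sphingoid bases, only CERS4 fell, to 14.95 ± 0.315 CPM in CR against 47.5 ± 5.05 CPM in WT (log2 fold change -1.67, SE 0.22; edgeR adjusted p = 0.00394). Of 13 triglyceride genes AGPAT1 fell (19.6 ± 0.166 CPM in CR, 41.1 ± 4.58 CPM in WT) and 0 rose. Of 8 genes of peroxisomal oxidation ACOX2 (14.7 ± 0.146 CPM in CR, 36.8 ± 5.74 CPM in WT) and ACOX3 (5.72 ± 1.43 CPM in CR, 13.4 ± 2.87 CPM in WT) fell and 0 rose. PLA2G4A, AGPAT1, ACOX2 and ACOX3 were not called when either CR library was left out, and ACOX3 also not with library size alone or the 1 CPM filter.

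The list with the largest share of calls was eicosanoid synthesis, where 3 of 8 tested genes fell and 1 rose. PTGES, a prostaglandin E synthase, had 10 and 10 counts in CR against 398 and 577 counts in WT, a level 51.2-fold lower in CR (edgeR adjusted p = 0.00026; log2 fold change -5.66, SE 0.37). ALOX5, the lipoxygenase that starts leukotriene synthesis, fell to 1.90 ± 0.265 CPM in CR against 12.7 ± 2.84 CPM in WT (edgeR adjusted p = 0.00240). ALOX12B, an epidermal lipoxygenase, had 0 counts in CR and 37 and 19 counts in WT, at least 19.6-fold lower with the floor of 3 counts over the group. PTGS1, a cyclooxygenase, rose to 8.80 ± 0.796 CPM in CR against 2.85 ± 1.12 CPM in WT (log2 fold change 1.63; edgeR adjusted p = 0.0287), a call lost without either CR library, and PTGS2 had 0 counts in every library.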

How the data were processed

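RNA-seq of 4 poly(A) libraries (2 CR, 2 WT), made with a stranded kit per the labels' protocols, was analysed. The submitters' processing notes name build GRCh38.p7 and the tools HTSeq, DESeq and STAR 2.5.1a, with no role or order. For annotation release and counting strand: not given in the sources used here. The deposited count table holds unnormalized whole-number counts per Ensembl gene. The deposited normalized signal equals these counts divided by 1 factor per library (relative difference at most 5.06e-15) and served as an alternative scale. Rows without a symbol held 0.436% to 0.535% of the counts.

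CR minus WT was fitted to all genes in R 4.3.3 with edgeR 4.0.16 (TMM factors, filterByExpr with a minimum count of 10, robust quasi-likelihood test). P-values are two-sided and Benjamini-Hochberg adjusted over all tested genes, and calls are at 0.05 or below. SE is the absolute log2 fold change over the square root of F. CPM use TMM-adjusted library sizes. Folds are ratios of summed counts over those sizes. Intervals are exact binomial (95%) and, like floors, cover counting error only. The fit was tested on simulated data. With 2 libraries a group, exact permutation cannot reach 0.05 and was not used. Replicates differed by more than counting noise (chi-square 13.8 times its degrees of freedom in CR, 84.6 in WT).

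Coordinates and exon lengths came from GENCODE 29 (GRCh38), promoters from RefSeq (GRCh38.p14), both of the primary build the notes name. All 10 members had a promoter window. The members, gene lists and tests were chosen with earlier results of these data known. Genes were named by this rule: all members, and in each list the called genes up to 4 with the smallest adjusted p, or the 2 most abundant where none was called, plus SREBF1, SREBF2, FASN, ACACA, HSD17B12, TECR, CYB5A and CYB5R3. INSIG1, RXRA, SCAP and PPARG were added outside this rule, for an unadjusted edgeR p under 0.05. Columns not mapped to a sample numbered 0. Alternatives were other factors and filters, DESeq2 1.42.0, limma-voom (limma 3.58.1), a replicate block and leaving out each library. Leaving out a library leaves a single one in its group, so that fit takes its spread from the other group alone.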

Additional observations from a re-analysis of the deposited data

How the results depend on the processing

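Calls of members are a description here too, since the members were chosen with this contrast known. They stayed at 2 higher and 1 lower, or within 1.5 times that, under RLE, upper quartile and library-size factors, no filter, DESeq2, limma-voom and the replicate block. With at least 1 CPM required in all libraries, which removes ELOVL4 and ELOVL6, 1 was higher and 0 lower. The pathway lists then had 3 and 4 calls and all genes 412 and 526. With no filter 1454 genes were called higher. Leaving out single libraries gave 2 to 7 members higher and 1 to 2 lower, 3 to 26 list genes higher and 4 to 31 lower, and 537 to 3864 genes higher and 883 to 4015 lower. FADS1 was called higher with upper quartile factors, library size alone, no filter and the crossed block.

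Both groups share the replicate numbers. Deviations of same-numbered libraries correlated at -0.17 across genes, a single value that cannot show whether the numbers mark a pairing. A replicate block gave 8 higher calls among list genes and 3 among members, ELOVL7 among them. Crossed numbers as the block, chosen after seeing the data, gave 4 members, 8 list genes and 1671 genes higher.

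Log2 fold changes near 0 turned sign. SREBF1 (-0.02) was 0.0173 with upper quartile factors, 0.0346 with library size alone, 0.00882 with the 1 CPM filter, 0.0169 with limma-voom, 0.0155 with the replicate block and 0.0154 with the crossed block. HSD17B12 (-0.06) was 0.00654 with limma-voom, 0.00614 with the replicate block and 0.00567 with the crossed block. Leaving out single libraries gave ranges of -0.31 to 0.34 for SREBF1, -0.44 to 0.45 for HSD17B12, -0.40 to 0.0128 for ACACA, -0.30 to 0.0112 for CYB5R3, -0.32 to 0.72 for ELOVL5 and -0.0318 to 0.65 for SCD5. The cause was not tested. Over all named genes and settings 368 of 419 values kept direction and side of the threshold, 18 lost and 17 gained a call, and 16 turned sign. With 2 libraries a group, differences smaller than the spread of the WT pair could not be resolved.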
